A study of Mus musculus with 4 samples.

Results

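The histone genes of the Hist1 cluster were followed across the cells of transplanted mouse mammary tumours. The members were all gene symbols that start with Hist1h in the deposited gene lists, 54 of 23635 symbols, and no measured value entered the choice. They comprise 6 genes of the linker histone H1 and 14, 14, 9 and 11 genes of the core histones H2A, H2B, H3 and H4. The tumours were grown from Py8119. This mesenchymal line comes from an MMTV-PyMT mouse, a model in which the mouse mammary tumour virus promoter drives the polyoma middle T antigen and mammary carcinomas form. There were 2 libraries of control tumours (labelled NC, genotype control) and 2 of tumours with a short hairpin RNA against Sema4d (labelled Sema4d-shRNA), and all 4 are from the same line. The sources used here do not give the age, sex, strain or number of the recipient mice, or say whether tumours were pooled. The p-values therefore measure the spread between these libraries, which may be technical. Values for the 4 libraries are given below in the order NC 1, NC 2, Sema4d-shRNA 1 and Sema4d-shRNA 2.

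Histone proteins package DNA: copies of H2A, H2B, H3 and H4 form the nucleosome core, and H1 binds the linker DNA between nucleosomes. Most genes of the cluster are replication-dependent, which means that their mRNA is made in S phase, when new DNA needs new nucleosomes. These mRNAs usually end in a conserved stem-loop in place of a poly(A) tail; the stem-loop-binding protein Slbp holds it, and the U7 snRNP, with Lsm10 and Lsm11, directs the cut behind it. Some genes of the cluster are also known to make polyadenylated mRNA in cells that have stopped dividing. What share of the transcripts without a tail was captured here is not known, so levels describe captured transcripts, and they are not compared between genes as molecules per cell.

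All 54 members lie on chromosome 13 of GRCm38 in the GENCODE annotation. The protein-coding ones lie between positions 21715763 and 23934851, and Hist1h2al is annotated there as a processed pseudogene outside that range. The histone stem-loop, a run of bases whose ends pair around a short loop, was found on the sense strand of an annotated transcript in 35 members. It stands here in capitals with 5 bases on each side, for 6 of the members with most counts, since the results turn on them.
Hist1h1c: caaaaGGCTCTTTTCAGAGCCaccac
Hist1h1e: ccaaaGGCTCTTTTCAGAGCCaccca
Hist1h2ae: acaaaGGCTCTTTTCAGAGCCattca
Hist1h3c: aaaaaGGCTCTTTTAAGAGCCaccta
Hist1h4d: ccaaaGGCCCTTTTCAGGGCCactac
Hist1h4i: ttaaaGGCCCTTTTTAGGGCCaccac
The polyadenylation signal AATAAA occurred after the stem-loop in 8 members, among them Hist1h1c (1 copy), Hist1h1d (7 copies) and Hist1h2ae (1 copy). The annotated transcript of Hist1h2bc held 1 AATAAA and no match to the stem-loop pattern. No match says only that these letters are not in the annotated transcript, and the transcripts of Hist1h1b, Hist1h2af and Hist1h2an, which end close to the coding sequence, had none either.

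The H1 genes share a promoter layout, shown here because 3 of them behaved differently in dividing cells. Below are the 130 bases before the RefSeq start (GRCm38.p6), with the H1 box AAACACA, the CCAAT box (or its reverse complement ATTGG) and TATAAA in capitals. They are Hist1h1c at chr13:23738677-23738806 on the plus strand, Hist1h1e at chr13:23622559-23622688 on the minus strand and Hist1h1b at chr13:21780626-21780755 on the minus strand.
Hist1h1c: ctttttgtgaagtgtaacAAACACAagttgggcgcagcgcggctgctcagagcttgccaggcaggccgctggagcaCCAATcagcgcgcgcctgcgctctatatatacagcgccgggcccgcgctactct
Hist1h1e: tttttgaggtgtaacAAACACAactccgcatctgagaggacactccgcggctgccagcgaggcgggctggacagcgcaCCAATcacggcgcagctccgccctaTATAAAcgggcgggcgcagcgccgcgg
Hist1h1b: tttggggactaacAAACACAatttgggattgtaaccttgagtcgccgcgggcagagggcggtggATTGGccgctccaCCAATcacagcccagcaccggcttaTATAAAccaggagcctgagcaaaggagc
Promoter entries matched 49 of the 54 members, each window running from 250 bases before to 50 after the start, and letters were searched on both strands. The H1 box was in 5 of 6 H1 promoters, in all but Hist1h1a, in 2 of 12 H2A and 1 of 13 H2B promoters and in none of H3 or H4, against 7.18% of all 32851 promoters in the table. CCAAT was in all 6 H1, 12 H2A, 13 H2B and 7 H3 promoters and in 3 of 11 H4 promoters, against 37.4% of all promoters. TATAAA was in 4 of 6 H1, 8 of 12 H2A, 6 of 13 H2B, 4 of 7 H3 and 8 of 11 H4 promoters, against 13.6%. The octamer ATTTGCAT was in 5 of 12 H2A and 4 of 13 H2B promoters and in none of H1, H3 or H4, against 1.74%. These matches are descriptions of the letters and were not tied to any level below.

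The libraries held 10874, 10598, 10575 and 13173 cells with 83513906 to 119758159 counts of unique molecular identifiers (UMIs), and median UMIs per cell ran from 5690 to 8180. The labels call the cells tumour cells, but markers of other types were present: 1624 to 3490 cells a library were macrophage or monocyte-like and 262 to 944 T and NK-like, beside 4700 to 8026 tumour-like cells. The tumour-like clusters carried 8 or 9 of the 12 tumour markers, and 8.58% to 21.1% of cells a library stayed in unnamed clusters. The fibroblast-like cluster carried 9 and the mammary epithelium-like one 8 as well, so this count alone does not set tumour-like cells apart. Sema4d, the targeted gene, had levels of 6.65, 7.40, 4.18 and 5.60 CPM in the tumour-like cells (log2 difference -0.45 ± 0.16 SE, edgeR adjusted p = 0.24), so the groups did not overlap but the difference did not pass the test. Where the hairpin's target site lies, and so whether a 3′ count would show the knockdown, is not given. The log2 difference of Sema4d between the groups was -0.40 ± 0.14 SE in T and NK-like cells (edgeR adjusted p = 0.81). In macrophage or monocyte-like cells it was 0.16 ± 0.12 (edgeR adjusted p = 0.70). Among cells without the cycling markers set out below, Sema4d was higher in T and NK-like than in tumour-like cells, by 5.02 on the log2 scale. For macrophage or monocyte-like cells that value was 3.79. What part of its tumour-like level was RNA from other cells was not tested. Levels in CPM are UMI counts of a gene or family scaled to the summed UMIs of the same cells.

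Hist1h genes held 686, 730, 719 and 684 CPM in the whole libraries, a total of 294527 UMIs in the cells kept. Counts were concentrated: 26 members had more than 1000 UMIs, 3 had fewer than 10, and the 12 highest held 86.0% of all Hist1h UMIs in tumour-like cells. Those 12 were Hist1h1e, Hist1h4d, Hist1h2bc, Hist1h1c, Hist1h2ae, Hist1h3c, Hist1h4i, Hist1h1b, Hist1h4c, Hist1h2an, Hist1h2ab and Hist1h2af. Close copies limit the assignment of reads: for 21 members under 50% of all 100-base windows of the transcript, the length of the transcript read, were found in no other gene. Among the 12, this share was 16.7% for Hist1h2an, 20.7% for Hist1h2af and 47.6% for Hist1h2ab, so their values are uncertain, while it was 100% for Hist1h4d and Hist1h1b and 94.9% for Hist1h1c. In the annotation 17 members overlap another gene, and the use of strand in counting is not given. Among the 12, Hist1h1e overlaps Hist1h2be and Gm11398. Hist1h2ae, Hist1h2an, Hist1h2ab and Hist1h2af each overlap a gene with a Gm symbol.

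In tumour-like cells the cluster was mostly an mRNA signature of dividing cells, with a pair of exceptions. Cells were called cycling with 2 or more UMIs of Top2a, Mki67, Cdk1 and Birc5 together, genes of chromosome segregation and cell division, none of which is a member. They made up 39.0%, 32.3%, 49.0% and 37.8% of tumour-like cells. All Hist1h genes together stood at 961, 995, 1083 and 973 CPM in cycling cells and at 318, 341, 322 and 384 in the others, a ratio of 2.96 ± 0.34 (SD, n = 4 libraries). Cycling cells were also the deeper ones, with median UMIs of 17012, 14109, 15555 and 13821.5 against 8374.5, 7085, 7473.5 and 6960. With cycling called after each cell was thinned to 2000 UMIs, the ratio was 2.95 ± 0.35.

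Of the 54 members 50 had counts enough for the test, and 48 were higher and 2 lower in cycling than in other tumour-like cells, where 31% of all genes tested were higher and 31.4% lower. The other 4 were not tested: Hist1h1t, the testis-specific H1, had 20 UMIs in tumour-like cells, Hist1h2br 3, Hist1h2aa 2 and Hist1h2bq 1. A member could pass the filter through its counts in cycling cells alone. The median log2 difference over the tested members was 2.61, against -0.02 over all genes. By family the median was 3.09 for H2A, 2.79 for H1, 2.59 for H3, 2.47 for H2B and 1.97 for H4.

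**Figure D1:**
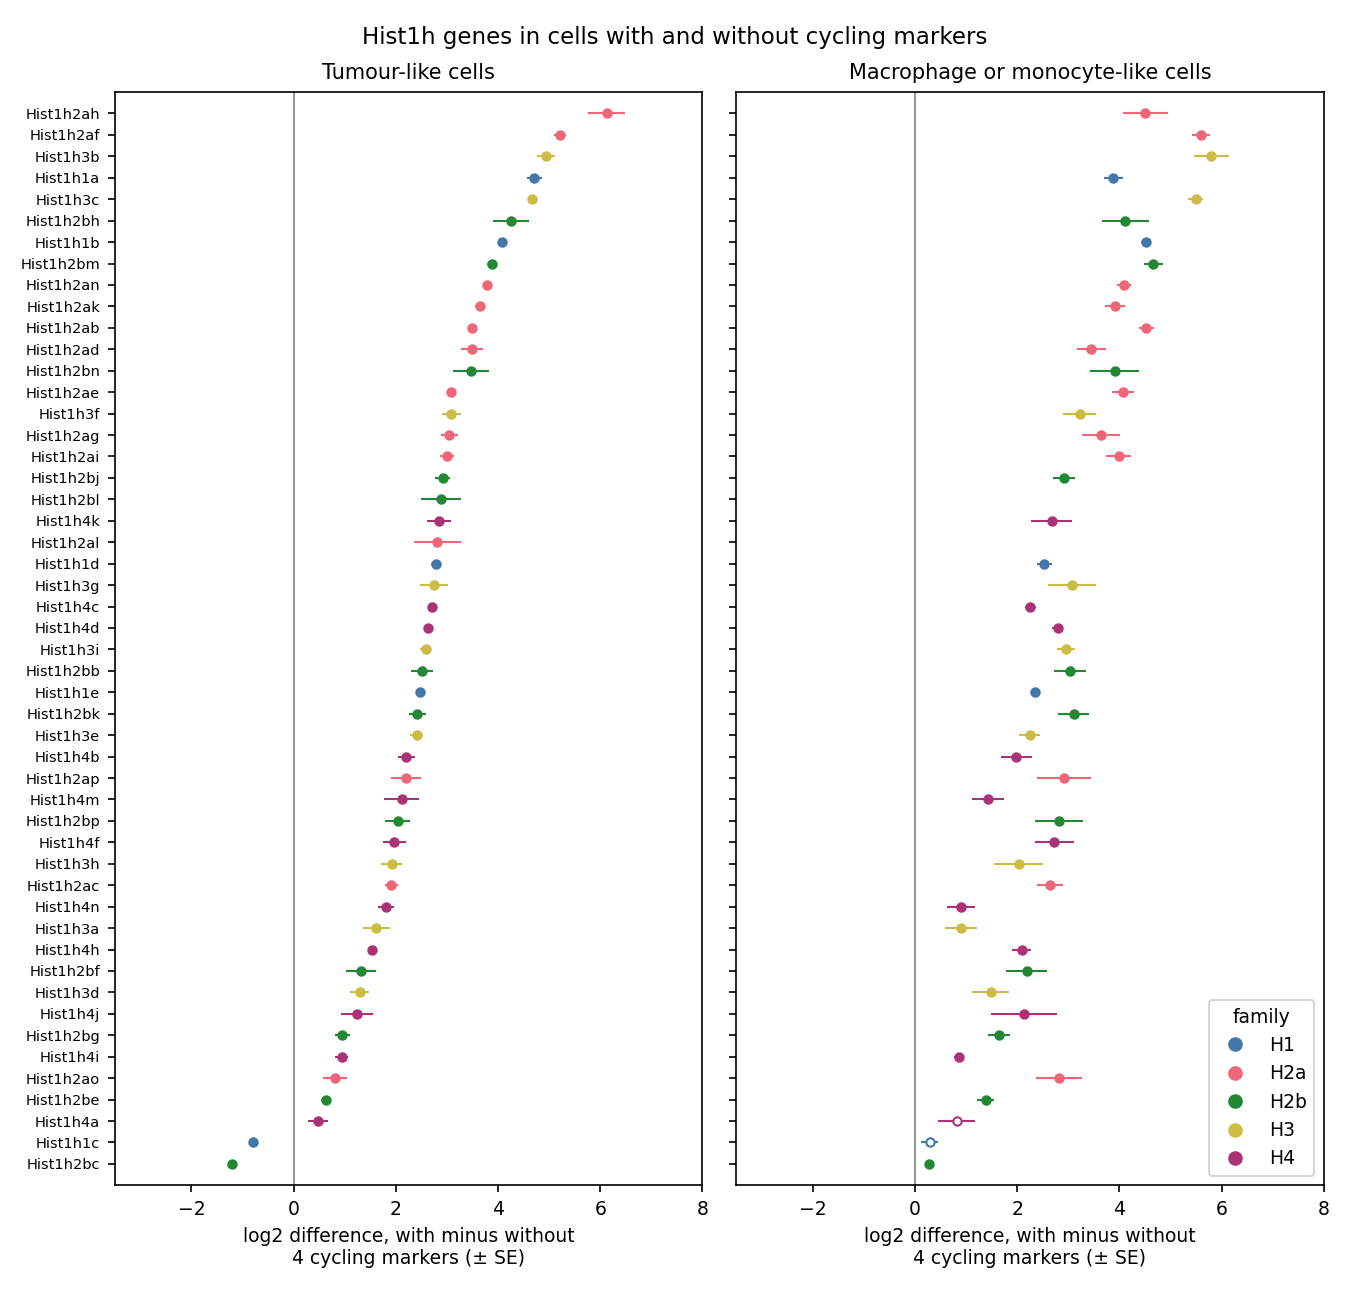
Log2 difference between cells with and without cycling markers for each member tested, in tumour-like cells (left) and macrophage or monocyte-like cells (right). The x axis is the log2 difference with its SE from the edgeR fit, colours are histone families, and open points did not pass the test. In tumour-like cells 48 of 50 members lie above 0, and Hist1h1c and Hist1h2bc lie below it.

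Among the linker histones, Hist1h1b (H1.5) stood at 52.3, 57.0, 75.6 and 59.3 CPM in cycling tumour-like cells and at 2.49, 2.92, 4.04 and 4.07 in the others. Its lowest cycling value lay far above its highest value elsewhere (log2 difference 4.07 ± 0.06 SE, adjusted p = 8.9e-36). Hist1h1e (H1.4), the member with most counts, was at 132, 130.2, 181 and 135 against 23.4, 20.1, 30.5 and 24.0 (2.48 ± 0.04, adjusted p = 1.3e-38). Hist1h1a rose by 4.71 ± 0.14 and Hist1h1d by 2.79 ± 0.09 on the log2 scale. Hist1h1c (H1.2) went the other way, with 57.5, 64.2, 47.8 and 61.7 in cycling cells and 92.3, 100.3, 81.6 and 103.6 in the others (-0.79 ± 0.03, adjusted p = 4.5e-24). Each library showed that order, and the highest cycling value was below the lowest of the other cells. The 3 promoters printed above, which share the H1 box and CCAAT, thus belong to genes with log2 differences of 4.07, 2.48 and -0.79.

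The genes of the core histones H2A and H3 were higher in cycling cells throughout, 13 of 13 and 9 of 9 tested. Hist1h3c stood at 94.3, 90.8, 116 and 90.0 CPM in cycling tumour-like cells and at 3.54, 2.52, 4.39 and 3.85 in the others (4.67 ± 0.06, adjusted p = 1.4e-35). Hist1h2af was at 16.4, 16.6, 24.3 and 15.3 against 0.561, 0.444, 0.628 and 0.269 (5.21 ± 0.12, adjusted p = 2.1e-34). Hist1h2ah had the largest fitted difference of all members, 6.13 ± 0.36, on no more than 1 UMI a library outside cycling cells. It passed the filter through its counts in cycling cells and has 10.5% of windows of its own, so its value is uncertain. Hist1h2ae, the H2A gene with most counts, was at 124, 133.5, 106 and 88.9 against 12.8, 12.9, 12.6 and 11.5 (3.09 ± 0.06, adjusted p = 1.4e-17). Hist1h2an (3.79 ± 0.07), Hist1h2ak (3.65 ± 0.10), Hist1h2ab (3.50 ± 0.08) and Hist1h3b (4.95 ± 0.18, 43.4% of windows of its own) were also higher in cycling cells.

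The H4 genes were higher in cycling cells for 11 of 11 tested, with the lowest family median, and the H2B genes for 11 of 12. Hist1h4d stood at 116, 121, 155 and 122 CPM in cycling tumour-like cells and at 17.9, 17.1, 23.7 and 20 in the others (2.62 ± 0.04, adjusted p = 7.7e-41), and Hist1h4c rose by 2.70 ± 0.05. Hist1h4i, whose stem-loop is printed above beside that of Hist1h4d, was higher by less, at 65.1, 63.9, 57.2 and 91.8 against 25.9, 27.5, 33.9 and 50.4 (0.94 ± 0.13, adjusted p = 0.0063). Its 2 ranges did not overlap, but the value of Sema4d-shRNA 2 outside cycling cells came close to that of Sema4d-shRNA 1 within them. Of the H2B genes, Hist1h2bm rose by 3.89 ± 0.10, while Hist1h2bc, the H2B gene with most counts, fell by 1.21 ± 0.04 on the log2 scale. It stood at 46.7, 57.3, 37.6 and 60.7 in cycling cells and at 103.2, 119.9, 93.8 and 124.6 in the others (adjusted p = 2.5e-24). The summed H2B level was lower in cycling cells of every library (85.4, 98.3, 80.9 and 99.5) than in other tumour-like cells (111, 128, 101 and 135), while the H3 sum was 124, 119, 147 and 120 against 7.54, 6.92, 9.30 and 8.92.

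**Figure D2:**
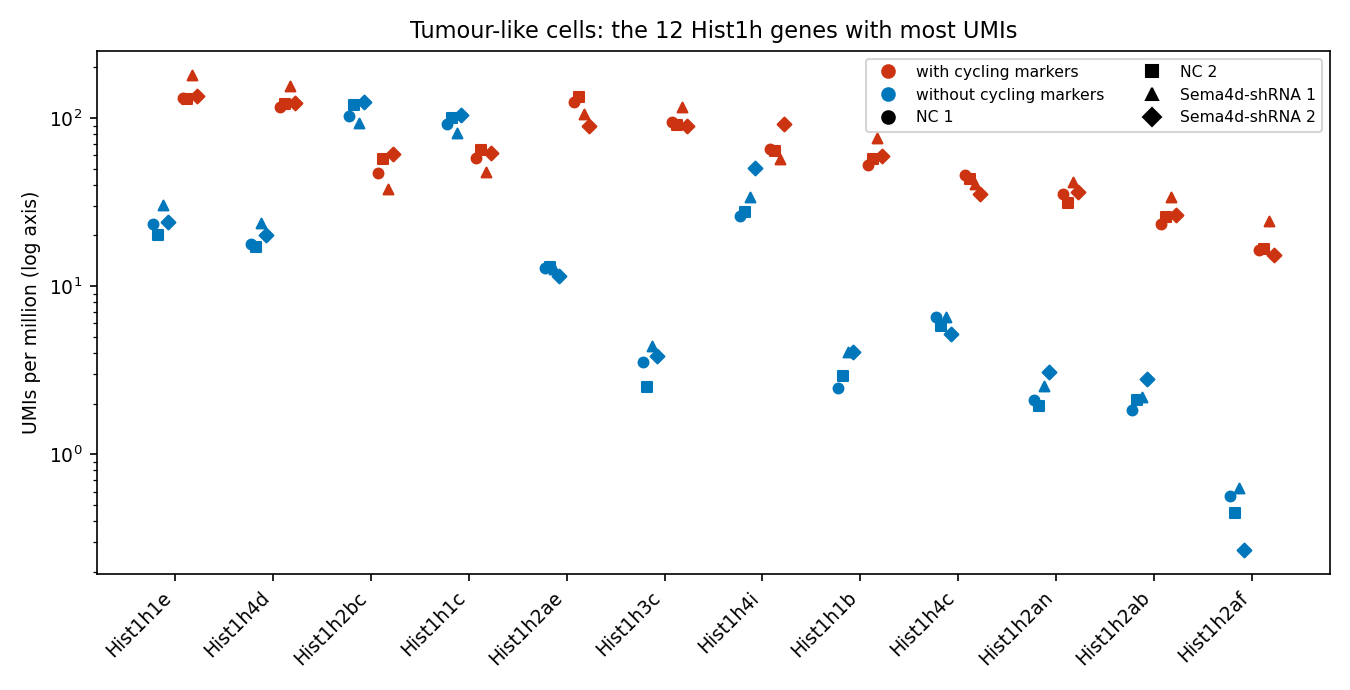
CPM of the 12 members with most counts in tumour-like cells of each library (y axis: CPM on a log scale, shapes: libraries, red: with cycling markers, blue: without). Hist1h1c and Hist1h2bc are the members whose blue points lie above the red ones.

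In macrophage or monocyte-like cells the level in cycling cells was higher still. Cells with cycling markers made up 17.2%, 19.6%, 13.2% and 14.1% of them, and all Hist1h genes stood at 2056, 2436, 1527 and 1288 CPM there, against 364, 396, 322 and 378 in the others (ratio 4.99 ± 1.21 SD, n = 4). Of 48 members tested 46 were higher and none lower, where 16.3% of all genes were higher and 16.6% lower. By DESeq2 42 were higher and none lower (all genes: 1232 and 1114 of 11564), and at an unadjusted p under 0.05 edgeR gave 47 of 48, none of them negative (all genes: 4768). Here too a member could pass the filter through its counts in cycling cells alone, which fixes its direction. In cells without cycling markers only 28 members had counts enough for the test between the groups. Hist1h3c was at 235, 281, 215 and 148 against 4.26, 6.87, 2.02 and 4.55 (5.49 ± 0.14, adjusted p = 3.6e-11), and Hist1h1b at 146, 173, 89.0 and 100.2 against 5.49, 6.65, 4.61 and 4.29 (4.52 ± 0.10). Hist1h2af (5.59 ± 0.18), Hist1h2ab (4.53 ± 0.15), Hist1h2an (4.09 ± 0.13) and Hist1h1e (2.35 ± 0.07) were higher as well. Hist1h2bc was here slightly higher in cycling cells (0.28 ± 0.06, adjusted p = 0.00050), and the difference of Hist1h1c did not pass the test (0.29 ± 0.16, adjusted p = 0.26). Whether these 2 genes differ between the cell types in that respect was not tested. Macrophage or monocyte-like cells were shallower than tumour-like ones, with medians of 4002 to 4702 UMIs against 8856.5 to 11054. The rule of 2 UMIs need not pick out cycling cells alike in both, and the size of the ratio depends on it.

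In T and NK-like cells all Hist1h genes stood at 3071, 3324, 2493 and 2900 CPM with cycling markers and at 619, 541, 698 and 696 without (ratio 4.71 ± 1.11 SD, n = 4). Of 29 members tested 26 were higher and none lower (all genes: 14.6% higher, 13.6% lower; DESeq2: 25 members higher and none lower, and 647 and 432 of 7602 genes). The 25 others had too few counts, and a tested member could pass the filter through its counts in cycling cells alone. Hist1h3c was at 373, 398, 305 and 370.0 against 13, 7.12, 5.72 and 9.40 (5.21 ± 0.19, adjusted p = 3.7e-26). Hist1h1c (-0.26 ± 0.15, adjusted p = 0.21) and Hist1h2bc (-0.10 ± 0.15, adjusted p = 0.68) did not pass the test, and their levels overlapped between the 2 kinds of cells.

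Genes around the histones moved unevenly with cycling in tumour-like cells. Histone chaperones, which carry new histones to DNA, were higher for 17 of 20 tested and lower for 2, led by Asf1b (3.01 ± 0.08), Chaf1b (2.02 ± 0.09), Chaf1a (1.91 ± 0.06) and Nasp (1.53 ± 0.03). Of 19 genes of histone transcription and 3′ processing 15 were higher and 1 lower, by less: Lsm11 1.08 ± 0.06, Eri1, which trims and degrades histone mRNA, 0.96 ± 0.04, Casp8ap2 0.77 ± 0.05, Slbp 0.75 ± 0.04 and Npat, which activates histone transcription in S phase, 0.38 ± 0.06. Lsm10 was lower (-0.24 ± 0.04). Of 11 replication-independent histone genes 10 were higher, from the centromeric H3 variant Cenpa (3.01 ± 0.04) through H1fx (1.78 ± 0.04), H2afz (1.63 ± 0.04) and H2afx (1.49 ± 0.04) to H2afj (0.10 ± 0.03), and H3f3a was lower (-0.13 ± 0.03). Histone genes of the other clusters were higher for 6 of 10 (Hist2h2bb 3.26, Hist2h2ac 3.22) and lower for 3 (Hist3h2a -0.41, Hist2h3c2 -0.69, Hist2h3c1 -0.88). All 25 S phase genes were higher. The shares of all genes higher and lower in this comparison are those given above with the members. The 3 of 10 lower are near that share.

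The 4 markers mark mainly late S, G2 and mitosis, so cells were also split by 2 or more UMIs of Mcm5, Cdc6, Gins2, Uhrf1, Rrm2 and Ccne2, genes of replication licensing and DNA synthesis. Cells with both marker sets, 22%, 16.1%, 30.3% and 19.7% of tumour-like cells, had the highest Hist1h level, at 1180, 1219, 1235 and 1174 CPM. Cells with the cycling markers only were at 492, 631, 673 and 631. Cells with the S phase markers only were at 340, 299, 340 and 363, which overlapped the 315, 345, 320 and 386 of cells with neither set. In macrophage or monocyte-like cells the order was alike, with 2743, 2967, 1827 and 1636 in cells with both sets and 1297, 1818, 1292 and 1048 in cells with the cycling markers only. T and NK-like cells, on 23 to 92 and 12 to 61 cells a library, showed that order in the control libraries alone: cells with both sets were at 3426, 3939, 2380 and 2885 and those with the cycling markers only at 2050, 1884, 2859 and 2952.

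**Figure D3:**
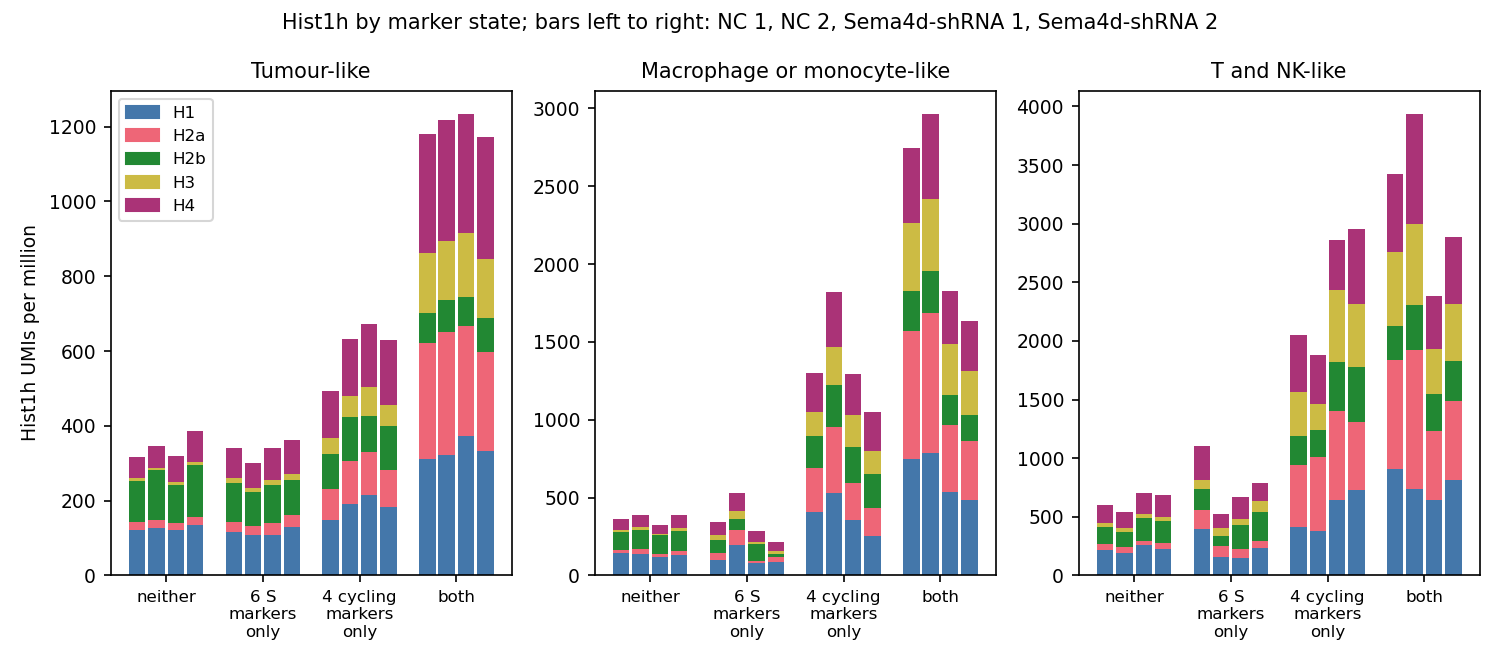
All Hist1h CPM in cells with both marker sets, the 4 cycling markers only, the S phase markers only or neither (y axis: CPM, 1 bar a library, stacked by histone family, 1 panel a cell class). In tumour-like cells the bars end between 1174 and 1235 with both sets and between 299 and 673 in the other states.

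Member by member, S phase marker cells stood below cells with only the cycling markers for 21 of 30 tumour-like members tested and above for none (all genes: 3.57% lower, 2.93% higher; DESeq2: 15 members lower and none higher, and 200 and 114 of 11178 genes). At an unadjusted p under 0.05 there were 24 of 30 members, none of them positive, and 2058 of 11178 genes. Hist1h3b differed by -3.42 ± 0.59, Hist1h2af by -3.09 ± 0.34, Hist1h3c by -2.38 ± 0.15, Hist1h2ae by -1.65 ± 0.10, Hist1h4d by -1.55 ± 0.09 and Hist1h1e by -1.23 ± 0.09. Hist1h1c (-0.05, adjusted p = 0.79) and Hist1h2bc (0.07, adjusted p = 0.64) did not pass the test. In the same comparison 9 of 25 S phase genes were higher and 2 lower (Rrm1 -0.56, Tyms -0.26). The marker genes Mcm5, Cdc6, Gins2, Uhrf1, Rrm2 and Ccne2, which define the S phase marker cells, were among those higher. Which part of the cycle these cells were in was not tested. Against cells with neither set, S phase marker cells had 6 of 28 members higher and 2 lower, where 9.15% and 7.46% of all genes were. Hist1h3c rose by 1.31 ± 0.21 and Hist1h1b by 1.11 ± 0.23, while Hist1h1c (-0.40 ± 0.06) and Hist1h2bc (-0.38 ± 0.07) were already lower than in cells with neither set. This count of 8 was 3 of the 6 members to which DESeq2 gave an adjusted p, 4 without library blocks and 33 with states called at 2000 UMIs; without Sema4d-shRNA replicate 1 or 2 it was 4 or 5. With 1 UMI in place of 2 as the rule for cycling, the 21 lower members became 11. The shares of all genes under these other choices are not given here.

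Hist1h1c and Hist1h2bc together made up most of what was left outside cycling cells. In tumour-like cells without cycling markers they stood at 81.6 to 103.6 and 93.8 to 124.6 CPM, within a total of 318 to 384 for all members. Of all Hist1h UMIs in tumour-like cells, 20.9%, 27.8%, 13.5% and 25.5% came from cells without cycling markers, which held 44.3%, 52.9%, 34.4% and 46.4% of all UMIs. Hist1h2bc (63.7%, 70.2%, 56.6% and 64.0%) and Hist1h1c (56.1%, 63.7%, 47.2% and 59.3%) were the only members with at least 100 UMIs whose mean share lay above that of all UMIs. Hist1h4a followed with a mean of 34.9%, Hist1h2be with 32.9%, Hist1h2ao with 29.9% and Hist1h4i with 28.2%, while Hist1h1e had 12.2%, Hist1h1b 4.36%, Hist1h3c 2.86%, Hist1h2af 2.10% and Hist1h2ah 1.10%.

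**Figure D4:**
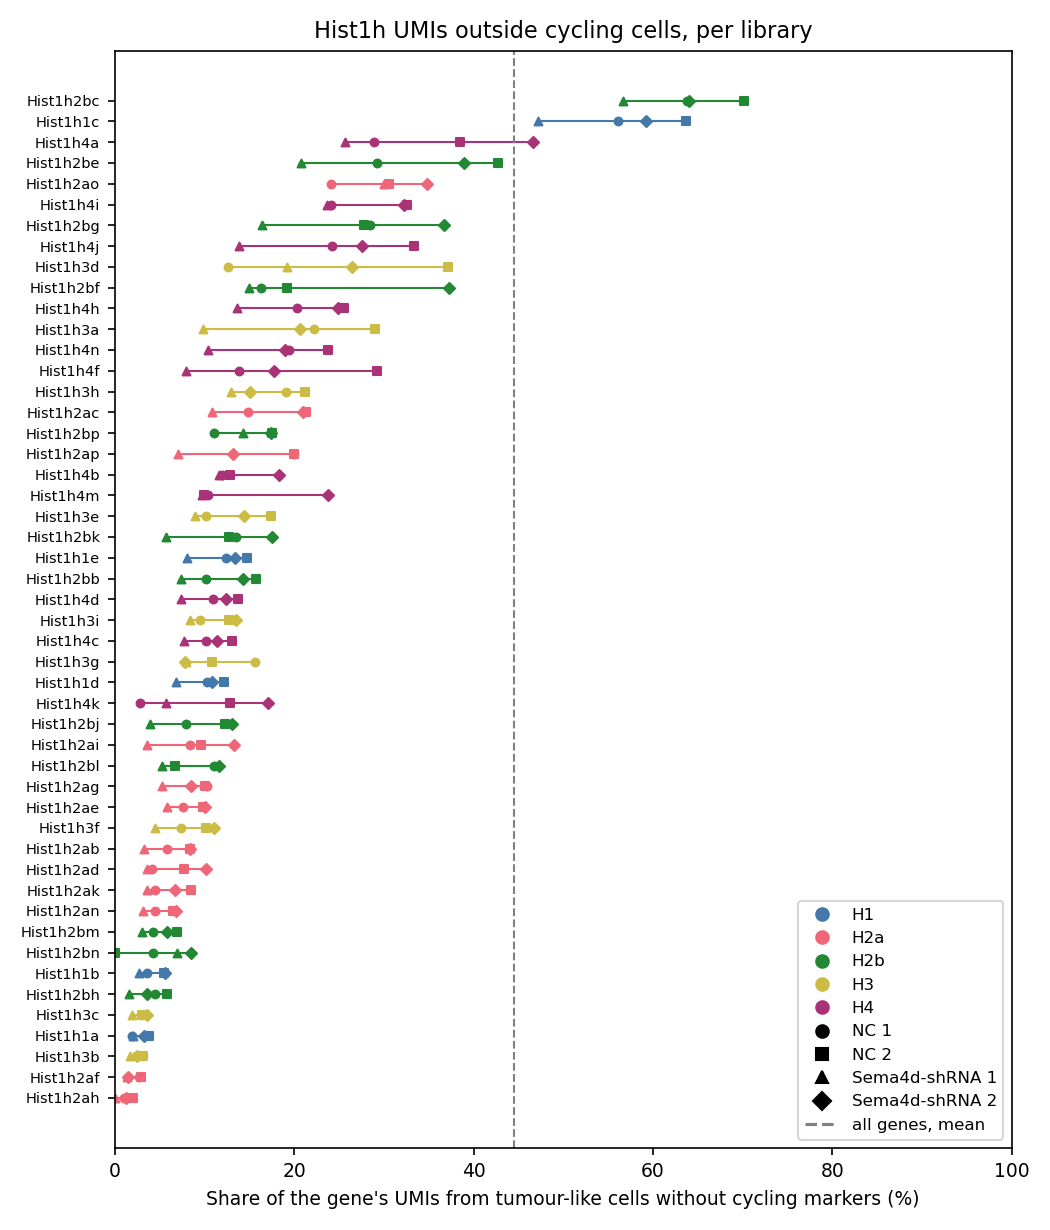
Share of each member's tumour-like UMIs that came from cells without cycling markers (x axis: percent, points: the 4 libraries, lines: lowest to highest, colours: histone families, dashed line: share of all UMIs, mean 44.5%). Among the 49 members with at least 100 UMIs, Hist1h2bc and Hist1h1c lie above the line in all 4 libraries.

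Shares of cells told the same with the Hist1h counts taken at equal depth, while cycling was still called on the full counts of each cell. With every cell thinned to 2000 UMIs, a Hist1h3c UMI was found in 13.8%, 13.9%, 18% and 13% of cycling and in 0.689%, 0.305%, 0.95% and 0.840% of other tumour-like cells. Hist1h1c was found in fewer cycling cells (9.67%, 11.2%, 9.33% and 11.2%) than others (15.4%, 16.5%, 13.9% and 16.1%), and so was Hist1h2bc (8.59%, 10.3%, 7.02% and 10.4% against 16.3%, 18.9%, 14% and 19.4%). Any Hist1h UMI was found in 61.7%, 61.5%, 66.7% and 65.4% of cycling and 43.1%, 45.4%, 43.1% and 47.1% of other tumour-like cells; unthinned these were 93.5%, 93.3%, 95.2% and 94.0% against 77.3%, 74.5%, 74.1% and 75.7%. Thinning left out 13 to 34 cycling and 155 to 351 other cells a library. Neutrophil-like cells, a type that does not divide once mature, were set beside them; they were too few and shallow (median 1233.5 to 1735 UMIs without cycling markers) for that depth, so both types were thinned to 1000 UMIs. Then 32.2% (exact 95% binomial interval 20.6% to 45.6%), 36.7%, 13% and 33.3% of their 59, 30, 23 and 15 cells had any Hist1h UMI, against 26.8%, 27.6%, 24.6% and 28.1% of tumour-like cells without cycling markers. Hist1h1c was found in 15.3%, 16.7%, 4.35% and 13.3% of neutrophil-like cells and in 9.17%, 9.46%, 8.01% and 8.43% of those tumour-like cells. No neutrophil-like cell had a Hist1h3c UMI, for which the exact interval allows up to 6.06% in NC 1 and 21.8% in Sema4d-shRNA 2. At this depth the shares of non-cycling tumour-like cells with any Hist1h or a Hist1h1c UMI lay within the exact intervals of the neutrophil-like cells of the same library. Those intervals are wide on so few cells, so these shares do not tell background from expression, and the part of free RNA in the levels outside cycling cells was not tested.

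Within cells that lacked cycling markers, Hist1h2bc differed among the tumour-like clusters. Its level was highest in a cluster led by Slurp1, at 208, 224, 242 and 232 CPM, which lay above every library of every other tumour-like cluster. The lowest mean over the 4 libraries was 58.1, in the cluster led by Ube2c, a mitotic gene. Hist1h1c had its lowest means in the Zfpm2-led (47.0) and Ube2c-led (49.1) tumour-like clusters and stood at 98.4, 114, 94.0 and 92.3 in the Slurp1-led one. Among the macrophage or monocyte-like clusters Hist1h1e stood at 106, 96.8, 106 and 107 in the Plac8-led, monocyte-like one and at 43.5, 45.9, 24.0 and 24.3 in the C1qa-led one. Histone genes had been left out of the clustering, but the clusters were drawn from the same cells, so the values describe them and were not tested.

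Between cell types, cells without cycling markers were compared within libraries. Of 40 members tested in macrophage or monocyte-like against tumour-like cells 21 were higher and 2 lower, where 39.5% of all genes were higher and 40.1% lower. Hist1h4c was higher by 1.06 ± 0.13, Hist1h1d by 1.54 ± 0.20 and Hist1h1e by 0.86 ± 0.21, and Hist1h4i (-0.41 ± 0.10) and Hist1h1c (-0.19 ± 0.07) were lower. The largest difference was that of Hist1h4m, at 1.97, 1.99, 1.59 and 1.17 CPM against 0.105, 0.0740, 0.118 and 0.245 (3.57 ± 0.43), a gene with 11.9% of windows of its own. Hist1h3a followed with 1.64, 2.37, 1.01 and 2.08 against 0.351, 0.33, 0.196 and 0.294 (2.64 ± 0.32). In T and NK-like cells 27 of 43 were higher and none lower than in tumour-like cells (all genes: 28.4% higher, 34.2% lower; DESeq2: 25 members higher and none lower, and 3410 and 3661 of 13324 genes; unadjusted p under 0.05: 30 members, none of them negative, and 8713 genes), among them Hist1h1e by 1.51 ± 0.13, Hist1h4c by 2.08 ± 0.21 and Hist1h4d by 1.35 ± 0.14. Depth moved with the cell type: median UMIs outside cycling cells were 6960 to 8374.5 in tumour-like, 3591 to 4061.5 in macrophage or monocyte-like and 1875 to 1979 in T and NK-like cells, and a shallow cycling cell can miss the 2-UMI rule. With cycling called at 2000 UMIs the 23 macrophage calls became 11 (10 higher, 1 lower) and the 27 in T and NK-like cells 18. The shares of all genes under that rule are not given here.

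The study's question is what Sema4d in tumour cells does, and its comparison is of the Sema4d-shRNA with the control tumours. The groups also differed in mitochondrial UMIs, with a median share per cell of 0.98%, 0.88%, 0.27% and 0.37% in the 4 libraries. An unnamed cluster with mitochondrial leading genes held 9.34%, 5.07%, 1.61% and 2.77% of cells. Whether a difference between the libraries in cell quality or handling has a part in the values below was not tested. In tumour-like cells no member of 50 tested passed the test in either direction, where 0.992% of all genes did. At an unadjusted p under 0.05 there were 12 members and 2140 of 14215 genes. By DESeq2 3 members passed, all higher, as did 101 of 13112 genes in that direction. Log2 differences lay above 0 for 38 of 50 members, with a median of 0.25 against 0.01 over all genes. Hist1h1e was at 83.6, 71.9, 129 and 83.4 CPM (0.51 ± 0.20, adjusted p = 0.32), and Hist1h1b at 30.2, 28.4, 51.0 and 33.6 (0.59 ± 0.18, adjusted p = 0.21). For both, Sema4d-shRNA 1 was high and Sema4d-shRNA 2 close to the controls. Hist1h4i had its high value in the other library instead, with 47.8, 44.6, 49.2 and 72.5 (0.46 ± 0.18, adjusted p = 0.29). Hist1h1c (-0.09) and Hist1h2bc (-0.07) differed little, and their direction turned with the library left out.

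Sema4d-shRNA 1, the library with most cycling tumour-like cells (49.0%), also stood apart in its clusters: 17.0% of its cells fell in an unnamed cluster led by Cxcl1 and Slpi, against 2.40% to 2.84% in the others. All 25 S phase genes lay above 0 in the same comparison, with a median of 0.31; none passed edgeR's test and 11 had an unadjusted p under 0.05. More members passed as higher without Sema4d-shRNA replicate 2 than without Sema4d-shRNA replicate 1. Each such fit holds a single library in a group. Within cycling tumour-like cells none of 50 members passed (all genes: 0.71%; unadjusted p under 0.05: 9 members and 1463 of 13385 genes; DESeq2: 0) and the median was 0.08. Without cycling markers none of 33 passed (all genes: 1.93%; unadjusted p under 0.05: 7 members and 2125 of 12766 genes; DESeq2: 1 member, and 97 genes higher and 167 lower) and the median was 0.30. In both kinds of cell more members passed without Sema4d-shRNA replicate 2 than without replicate 1, again on a single library in a group. The difference between those 2 effects passed for 1 member, lower in cycling cells: Hist1h4i, at -0.47 ± 0.07 (adjusted p = 4.4e-05; 0.0746% of all genes were lower; DESeq2: 0). That call was lost with 1 UMI as the cycling rule.

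**Figure D5:**
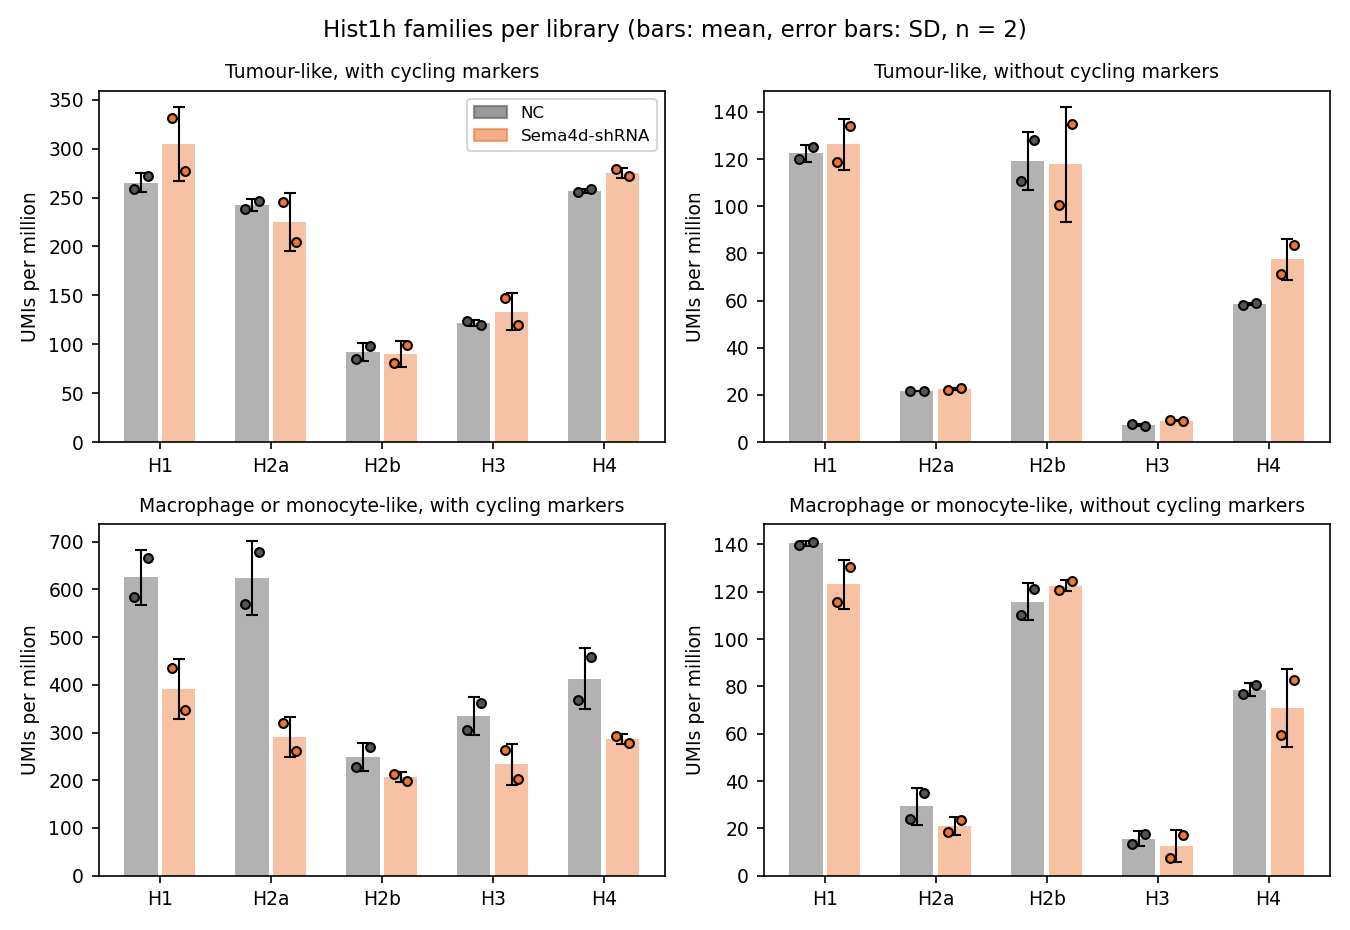
CPM of the H1, H2A, H2B, H3 and H4 genes by library, in tumour-like and macrophage or monocyte-like cells with and without cycling markers (y axis: CPM, points: libraries, bars: group means, error bars: SD, n = 2). In cycling macrophage or monocyte-like cells both Sema4d-shRNA libraries lie below both controls for H1, H2A, H2B, H3 and H4. How many of all genes show such an order in these cells was not computed, so it need not be particular to histone genes.

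In macrophage or monocyte-like cells 3 histone genes were lower in the Sema4d-shRNA tumours, an H2A pair and a linker histone. All Hist1h genes stood at 832, 962, 585 and 587 CPM, and of 48 members tested 3 passed as lower and none as higher, where 0.161% of all genes were lower and 0.0565% higher. Hist1h2ae was at 91.4, 117.8, 39.5 and 34.0 (-1.44 ± 0.15, adjusted p = 0.0035), Hist1h2an at 22.1, 21.7, 9.47 and 10.1 (-1.09 ± 0.14, adjusted p = 0.0077), and Hist1h1b at 44.5, 52.9, 23.0 and 26.3 (-0.91 ± 0.13, adjusted p = 0.012). For each the highest Sema4d-shRNA library was below the lowest control. Hist1h2an has 16.7% of its 100-base windows in no other gene and shares some with Hist1h2ae, so its value is uncertain. Log2 differences lay below 0 for 44 of the 48, with medians of -1.03 for H2A, -0.56 for H1, -0.47 for H3, -0.46 for H4 and -0.35 for H2B, and 21 had an unadjusted p under 0.05, as did 1269 of 12388 genes. The libraries of the groups did not overlap for 33 members in the lower direction and 1 in the higher, where this held for 30.1% and 13.1% of all genes. Hist1h1e, at 112, 122, 72.0 and 56.7, did not pass (-0.79 ± 0.14, adjusted p = 0.060), and Hist1h1c (-0.07 ± 0.10), Hist1h2bc (0.10 ± 0.11) and Hist1h4i (0.11 ± 0.16) had the smallest differences of the 12 members with most counts.

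Fewer of these cells cycled in the Sema4d-shRNA tumours, 13.2% and 14.1% against 17.2% and 19.6%, and cells with both marker sets made up 4.31% and 4.34% against 7.18% and 8.25%. Inside cycling cells Hist1h2ae stood at 299, 373, 145 and 112 (-1.34 ± 0.16, edgeR adjusted p = 0.00052). Hist1h2an was at 71.9, 67.3, 35.7 and 36.3 (-0.90 ± 0.16, adjusted p = 0.012), and Hist1h1b differed by -0.71 ± 0.13 (adjusted p = 0.020). These 3 were lower of 43 tested, where 0.135% of all genes were. Of the 3, DESeq2 left Hist1h2ae alone, with Hist1h2an at an adjusted p of 0.10 and Hist1h1b at 0.12. With cells named one by one Hist1h2an was lost (adjusted p = 0.060), and with states called at 2000 UMIs Hist1h1b was (adjusted p = 0.10), which left 2 members each time. Without cycling markers no member of 28 passed (all genes: 0.186%; unadjusted p under 0.05: 3 members and 992 of 11845 genes; DESeq2 gave none of them an adjusted p). All 25 S phase genes lay below 0 in all macrophage or monocyte-like cells, with a median of -0.35; none passed edgeR's test and 16 had an unadjusted p under 0.05. Below 0 were also all 10 replication-independent histones tested (median -0.11). Inside cycling cells 24 of 25 S phase genes lay below 0, with a median of -0.26, and none passed edgeR's test. Whether the make-up of the cycling cells has a part in the histone result was not tested. The make-up of the class differed with the group too: the C1qa-led cluster held 13.8%, 23.2%, 6.45% and 6.78% of all cells, while the Mmp12-led one held 4.59%, 5.22%, 4.45% and 4.26%. Its part in the result was not tested. Both counts of 3, in all and in cycling cells, fell without NC replicate 2 and rose without Sema4d-shRNA replicate 1.

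Over all cells of each class, the effect of Sema4d-shRNA on histone genes differed between the 2 cell types by a test of the difference itself. For 15 of 50 members tested it was lower in macrophage or monocyte-like than in tumour-like cells and for none higher, where 0.723% of all genes were lower and 2.34% higher; DESeq2 gave an adjusted p to 16 members, of which 10 were lower and none higher, and of 8561 genes 47 were lower and 304 higher. At an unadjusted p under 0.05 there were 27 members and 2187 of 14929 genes. They came from all 5 families, 4 of H1, 6 of H2A, 2 of H2B, 2 of H3 and 1 of H4. Hist1h1e differed by -1.27 ± 0.13 (adjusted p = 7.2e-05), Hist1h2an by -1.56 ± 0.19, Hist1h2ae by -1.27 ± 0.15, Hist1h1b by -1.45 ± 0.21, Hist1h3c by -1.15 ± 0.17 and Hist1h4d by -1.06 ± 0.16. Hist1h1c (0.04 ± 0.14, adjusted p = 0.93) and Hist1h2bc (0.22 ± 0.27, adjusted p = 0.80) did not pass. Genes of the cell cycle outside the cluster moved alike: 14 of 25 S phase genes were lower, among them Rrm2 (-1.25) and E2f8 (-1.28), as were 3 of 20 chaperones (Mcm2, Nasp at -0.51 and Asf1b at -0.92) and, of 11 histone genes of other clusters, Hist2h2ac (-1.25) and Hist2h2bb (-1.24). The count of 15 members fell without NC replicate 2 and rose without Sema4d-shRNA replicate 2. The shares of cycling cells, given above for both classes, enter these levels. The same test was not run inside cycling cells, so the part of those shares in the difference was not tested.

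In T and NK-like cells no member of 26 passed the test between the groups, where 0.254% of all genes did (unadjusted p under 0.05: 2 members and 427 of 8659 genes; DESeq2: 0 of the 11 members it gave an adjusted p). Those 2 were Hist1h2ae (-0.75, adjusted p = 0.068) and Hist1h2bc (0.78, adjusted p = 0.068). Members passed when either control library or Sema4d-shRNA replicate 1 was left out, each time on a single library in a group.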

How the data were processed

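Single-cell RNA sequencing libraries were made with the DNBelab C kit and sequenced on a DNBSEQ-T7, per the labels' protocols. The deposited files hold raw UMI counts per gene symbol and cell that the authors wrote with PISA 1.0, per the file headers; STAR 2.5.1b and the builds GRCh38 and mm10 are named in the submitters' processing notes without their roles. No source used here states the annotation, the cell calling or the strand setting. No 2 libraries were copies of each other, although 756 to 3782 cell names, which are running numbers, were shared between pairs.

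Cells under 300 genes or above 20% mitochondrial UMIs were left out, so 45062 of 45220 remained. Doublets were scored with Scrublet, whose automatic threshold marked 0% to 1.51% of cells, so the top 6% by score were left out, which gave 42359 cells. Cells were clustered with scanpy 1.11.5 (Leiden, 22 clusters) with histone genes left out, and clusters were named "-like" from marker lists. UMI counts were summed per library and cell class and tested with edgeR 4.0.16 (quasi-likelihood, TMM, filterByExpr) over all genes, Benjamini-Hochberg adjusted at 0.05, with the library as block for comparisons within libraries. In comparisons within libraries a gene could pass filterByExpr through its counts in 1 of the compared kinds of cells alone. DESeq2 1.42.0 was an alternative. The statistics were tested on simulated data. For macrophage or monocyte-like cells between the groups, 20 unchanged genes were called falsely. Recovered were 76.5% of 98 genes changed by 1 log2 unit and 94.8% of 96 changed by 2. For the difference of the effect between the cell types there were also 20 false calls. There 68.6% of 102 genes changed by 1 unit and 86.3% of 95 changed by 2 were recovered. Members and gene lists were chosen with earlier results of these data known. Named genes are the members that passed each test (at most 15) and the 12 with most UMIs in tumour-like cells; the Hist1h2ah, Hist1h2ao, Hist1h2be, Hist1h4a and cluster values were chosen after they were seen. Sequences came from GENCODE M21 on GRCm38 and from RefSeq. Intervals and spreads of shares cover counting error only.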

Additional observations from a re-analysis of the deposited data

Results flagged for a closer look

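The difference of the Sema4d-shRNA effect between tumour-like and macrophage or monocyte-like cells passed its own test for 15 members, which is what marks them here; a negative value means a lower log2 effect in macrophage or monocyte-like cells. Among the linker histones it was -1.27 for Hist1h1e, -1.12 for Hist1h1d, -1.45 for Hist1h1b and -1.15 for Hist1h1a. Of the H2A genes it was -1.56 for Hist1h2an, -1.27 for Hist1h2ae, -1.48 for Hist1h2af, -1.50 for Hist1h2ab, -1.23 for Hist1h2ai and -2.76 for Hist1h2ap. Of its 100-base windows, Hist1h2ap has 7.83% in no other gene, Hist1h2ai 11.6%, Hist1h2an 16.7% and Hist1h2af 20.7%. For Hist1h3b this share is 43.4% and for Hist1h2ab 47.6%. The values of all these members are uncertain. Of the H2B genes it was -1.27 for Hist1h2bm and -1.18 for Hist1h2bj. Of H3 and H4 it was -1.15 for Hist1h3c, -1.59 for Hist1h3b and -1.06 for Hist1h4d. By edgeR the adjusted p ran from 7.2e-05 for Hist1h1e to 0.033 for Hist1h2ap. All cells of each class entered that test, and so did their shares of cycling cells. The difference of the effect between tumour-like cells with and without cycling markers passed for Hist1h4i, at -0.47.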

How the results depend on the processing

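Counts below are of members past the threshold under 1 changed choice at a time. The shares of all genes under each choice are not set beside them, so a changed count need not be particular to the members. Leaving out 1 library left an arm with a single library, which was assumed to vary like the others. Between the groups, tumour-like cells had 0 (DESeq2 3, no filter on low counts 12, replicate block 1, leave-one-out 0 to 13), macrophage or monocyte-like cells 3 (DESeq2 7 of 25 with an adjusted p, no filter 16, replicate block 2, leave-one-out 1 to 8) and T and NK-like cells 0 (no filter 2, cells named one by one 2, leave-one-out 0 to 2). With cycling markers, tumour-like cells had 0 (no filter 7, states called at 2000 UMIs 1, leave-one-out 0 to 7) and macrophage or monocyte-like cells 3 (DESeq2 1, no filter 12, replicate block 11, all cells kept 7, 1 or more cycling UMIs 5, cells named one by one 2, states at 2000 UMIs 2, leave-one-out 1 to 10). Without them, tumour-like cells had 0 (DESeq2 1, no filter 4, replicate block 3, leave-one-out 0 to 3) and macrophage or monocyte-like cells 0 (no filter 1, states at 2000 UMIs 1; DESeq2 gave no adjusted p). S phase marker cells against neither set gave 8 (DESeq2 3 of 6 with an adjusted p, no replicate block 4, 1 or more cycling UMIs 3, 4 or more 18, states at 2000 UMIs 33, leave-one-out 4 to 7) and against the cycling markers only 21 (1 or more cycling UMIs 11, leave-one-out 16 to 21). The macrophage against tumour-like count of 23 became 11 with states at 2000 UMIs (leave-one-out 16 to 24), and the T and NK-like one of 27 became 18. The interaction with cycling gave 1 (DESeq2 0, 1 or more cycling UMIs 0, 4 or more 4, all cells kept 2, leave-one-out 1 to 2) and that with cell type 15 (DESeq2 10 of 16, leave-one-out 9 to 23). Cycling against other cells gave 49 to 50, 43 to 47 and 22 to 27 with a library left out, in tumour-like cells, macrophage or monocyte-like cells and T and NK-like cells.

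The ratio of all Hist1h levels between cycling and other cells was 2.96 in tumour-like cells (1 or more cycling UMIs 2.51, 4 or more 3.53) and 4.99 in macrophage or monocyte-like cells (1 or more 3.39). Shares of cells with any Hist1h UMI fell with the thinned depth, from 63.8% to 47.4% and from 44.7% to 26.8% at 1000 UMIs.

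Directions reversed for members that had not passed the test between the groups: in tumour-like cells Hist1h2bc (leave-one-out -0.45 to 0.22, above 0 without NC replicate 2, at 0.11, or Sema4d-shRNA replicate 1; 0.061 with cells named one by one, 0.025 with the left-out tumour cluster), Hist1h1c (leave-one-out -0.33 to 0.12, above 0 without the same libraries, at 0.016 and 0.12), Hist1h2ae (leave-one-out -0.38 to 0.10, above 0 without Sema4d-shRNA replicate 2) and Hist1h4c (-0.11 and -0.22 without NC replicate 2 and Sema4d-shRNA replicate 1, -0.15 one by one, -0.016 with all cells kept, -0.10 with the left-out tumour cluster), and in macrophage or monocyte-like cells Hist1h4i (leave-one-out -0.18 to 0.34, below 0 without Sema4d-shRNA replicate 2). Between cell types, with states at 2000 UMIs, Hist1h1b (-0.14), Hist1h4d (-0.20) and Hist1h2ak (-0.0022) reversed. The cause was not tested. The left-out tumour cluster was added as an alternative after seeing the data. Of 2062 alternative values of named genes 1941 kept direction and side of the threshold. The labels give replicate numbers but nothing that pairs libraries: the deviations of same-numbered libraries correlated at 0.12 in tumour-like, 0.14 in macrophage or monocyte-like and -0.066 in T and NK-like cells. Depth limits the members with fewest UMIs, 3 of which had under 10.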
